A study of Schizosaccharomyces pombe
Saccharomyces cerevisiae with 16 samples.

Results

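Total RNA of budding yeast (Saccharomyces cerevisiae) was compared with and without auxin in a strain whose Med17 protein can be destroyed on demand. The comparison holds 4 of the 16 libraries of the series, 2 from auxin-treated and 2 from DMSO-treated cultures, chosen by the strain, treatment and kind of RNA in their labels. All genes of the deposited total RNA table were members, and 5625 of its 6805 genes passed a filter on low counts and were tested. The other 12 libraries came from total RNA of a Med14 strain and from newly synthesized RNA of both strains. They enter below only where a difference from the Med17 total RNA is given.

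Both Med17 groups were MATalpha cells of the strain OsTIR1 MED17-IAA7. They carry OsTIR1, a rice F-box protein expressed from the GPD1 promoter, and an IAA7 degron on Med17, so that auxin sends the tagged protein to the proteasome. The auxin group received 500 µM 3-indoleacetic acid and the DMSO group the solvent, each for 30 min in rich medium, and every culture then received 5 mM 4-thiouracil (4tU) for 6 min. The Med14 groups were treated alike and carry the degron on Med14. Both groups of a strain hold OsTIR1 and the degron, and no strain without them is among the samples. For the Med17 samples the labels are in conflict. Their genotype field has a tag on MED14, whereas the strain and source fields give Med17 and were followed. The replicates are biological replicates per the series description.

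Mediator is the coactivator that carries signals from DNA-bound activators to RNA polymerase II at promoters. Med17, encoded by SRB4, belongs to its head module, which contacts the polymerase, and Med14, encoded by RGR1, is the backbone that joins the modules. The level of an RNA in total RNA depends on its synthesis and its decay, so that after synthesis is changed, long-lived RNAs move slowly and short-lived ones quickly. Transfer RNAs and a few other small RNAs are made by RNA polymerase III, and the RNAs of the mitochondrial genome by a mitochondrial polymerase, neither of which is known to need Mediator.

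The Med17 libraries held 5.91 and 5.21 M raw counts with auxin and 4.94 and 8.84 M in DMSO. The authors' normalized counts equal the raw counts times a constant per library, which was 0.752 and 0.820 with auxin and 1.32 and 0.674 in DMSO. On that scale the total RNA summed to 4.35 ± 0.120 M with auxin and 6.24 ± 0.403 M in DMSO (SD, n = 2 each), so that 69.8% was left. Fission yeast (S. pombe) cells had been added to each culture ahead of the extraction, but their counts were not analysed here. How the authors derived the constants is not given in the labels or files used here. In bulk RNA, fewer cells and less RNA per cell cannot be told apart. A comparison of a single value in 2 against 2 libraries cannot give an exact p below 0.333, so p-values below come from the edgeR quasi-likelihood fit across all genes.

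The RNA of the tagged gene was read first. SRB4 (YER022W, chromosome V, 198812 to 200875, sacCer3) had 138 and 96.7 normalized counts with auxin and 354 and 333 in DMSO. Its RNA fell (log2 fold change -1.55, SE 0.172, adjusted p = 3.12e-06). RGR1 (YLR071C, chromosome XII, 275378 to 278626) had 332 and 296 with auxin and 653 and 621 in DMSO, and fell by 1.02 on the log2 scale (SE 0.116, adjusted p = 3.78e-06). Auxin removes the protein and not the transcript, so neither level can tell whether the labels are right. With the Med14 strain as the comparison, SRB4 had 213 and 168 with auxin and 295 and 323 in DMSO, and RGR1 had 472 and 459 with auxin and 488 and 566 in DMSO.

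Nearly the whole transcriptome was lower with auxin. Of the 5625 genes tested, 4914 fell, which is 87.4% of them, 136 rose, which is 2.42%, and 575 did not pass an adjusted p of 0.05. The median log2 fold change was -1.38, so that 38.5% of a gene's RNA was left, and both replicate pairs gave a like median, -1.41 and -1.32. A fall of more than 4-fold was called in 939 genes and one of more than 8-fold in 63. At the other end, 363 genes lay within 20% of their DMSO level, and 109 of the genes that rose did so by more than 2-fold. Protein-coding genes made up 4882 of the falls. The 136 rises were 68 protein-coding genes, 65 tRNA genes, 2 of them mitochondrial, and 3 snoRNA genes.

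These directions rest on the authors' constants. With TMM scaling, which assumes that most genes do not change, the median of all genes shifted by 1.21 on the log2 scale to -0.16, and 1904 genes were called lower and 1428 higher. Scaling by the mitochondrial genome gave 4920 lower and 128 higher genes, and scaling by the single RNA SCR1 gave 4347 and 119. The global fall stayed in place with mitochondrial genome scaling, with a median of -1.47. SCR1 scaling was chosen after the level of SCR1 was seen. Since SCR1 hardly changed on the authors' scale, this scaling had to give nearly the same median (a shift of -0.0022) and is no separate check. Of 31 gene lists, 28 had a negative median with the authors' constants and 16 of those turned positive under TMM. For a gene whose fall was smaller than this shift, the direction therefore depends on the scaling.

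**Figure D1:**
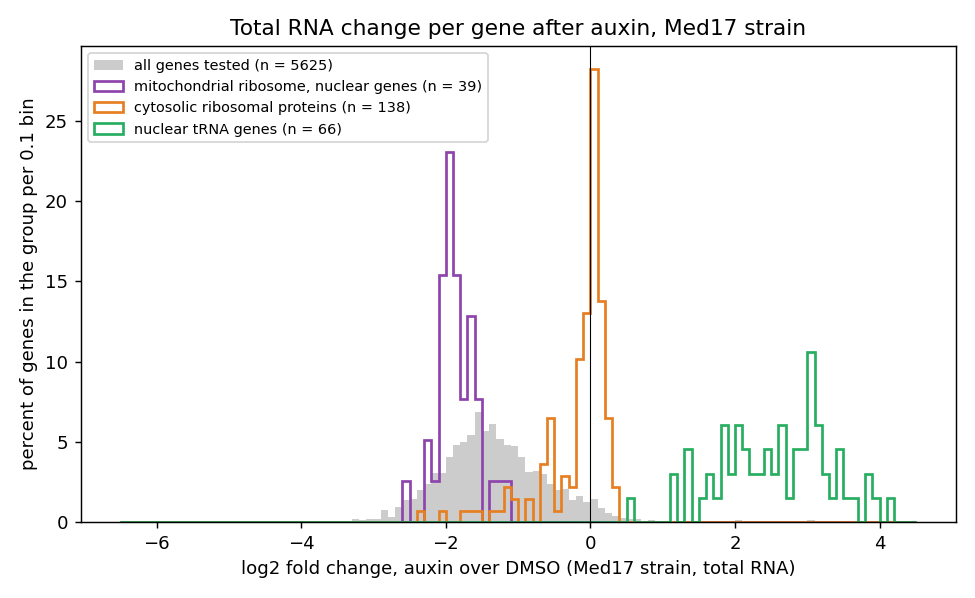
Distribution of log2 fold changes of total RNA, auxin over DMSO in the Med17 strain (x axis, bins of 0.1), as percent of the genes of each group (y axis), for all 5625 tested genes, the 39 nuclear genes of the mitochondrial ribosome, the 138 cytosolic ribosomal protein genes and the 66 tested nuclear tRNA genes. The mitochondrial ribosome lies left of the median of all genes (-1.38), the cytosolic ribosomal proteins near 0 and the tRNA genes right of 0. Many of the tRNA genes shown passed the filter on low counts through the auxin libraries, where they were high.

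The strongest falls were in genes of oxidative and chemical stress. The list of Yap1-type genes, targets of the activator of the oxidative stress response, had 11 tested members, all lower, against 87.4% of all genes tested, with a median log2 fold change of -3.31 against -1.38. HBN1 (YCL026C-B, chromosome III, 73405 to 73986), a nitroreductase-like protein, had 117 and 125 normalized counts with auxin and 2297 and 2314 in DMSO. Its log2 fold change was -4.25 (SE 0.449, adjusted p = 2.08e-06), and the neighbouring FRM2, of the same family, had 30.1 and 40.2 with auxin and 608 and 531 in DMSO (-4.02). OYE3 (YPL171C, chromosome XVI, 226169 to 227371), an NADPH oxidoreductase known as old yellow enzyme, had 129 and 172 with auxin and 2367 and 2959 in DMSO (-4.15, SE 0.659, adjusted p = 6.51e-05). In all of these the auxin libraries lay more than 8-fold below the DMSO libraries and the groups did not overlap. The genes were picked among called genes whose replicate pairs both fell, so the lack of overlap follows largely from the choice.

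ECM4, a glutathione transferase, and GPX2, a glutathione peroxidase, belonged to the same list and changed by -3.77 and -3.31 on the log2 scale. OYE2, the paralogue of OYE3, had 4711 and 4503 with auxin and 30435 and 30049 in DMSO (-2.71). At the shallow end stood TSA1, the abundant peroxiredoxin, with 9050 and 7812 with auxin and 15370 and 13450 in DMSO (-0.77). TSA1 thus fell less than the median gene, and under TMM its change was 0.45. Outside the list, the same depth was reached by YLL060C (a glutathione S-transferase, -4.08), YKL086W (sulfiredoxin, which repairs oxidized peroxiredoxin, -4.05), YLR460C (a quinone oxidoreductase family member, -4.05) and YBR008C (a drug transporter of the major facilitator superfamily, -3.96). YCR102C and YKL071W fell by 3.94 and 4.23. Only 11 of the 23 names sought for the list were matched, so a gene outside it may still be of the Yap1 type.

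These genes stood high before auxin in the Med17 strain. OYE3 had 226 and 80.4 normalized counts in the Med14 strain in DMSO, and for 9 of the genes that fell most the Med17 DMSO mean was 9.09 to 17.4 times the Med14 DMSO mean. With auxin the Med17 strain had 0.541 to 0.982 times the Med14 DMSO mean for the same 9 genes. The Med14 auxin libraries spread widely here, with 205 and 6.95 for OYE3 and 176 and 34.7 for HBN1. Whether the higher DMSO level has a part in the size of these falls was not tested.

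**Figure D2:**
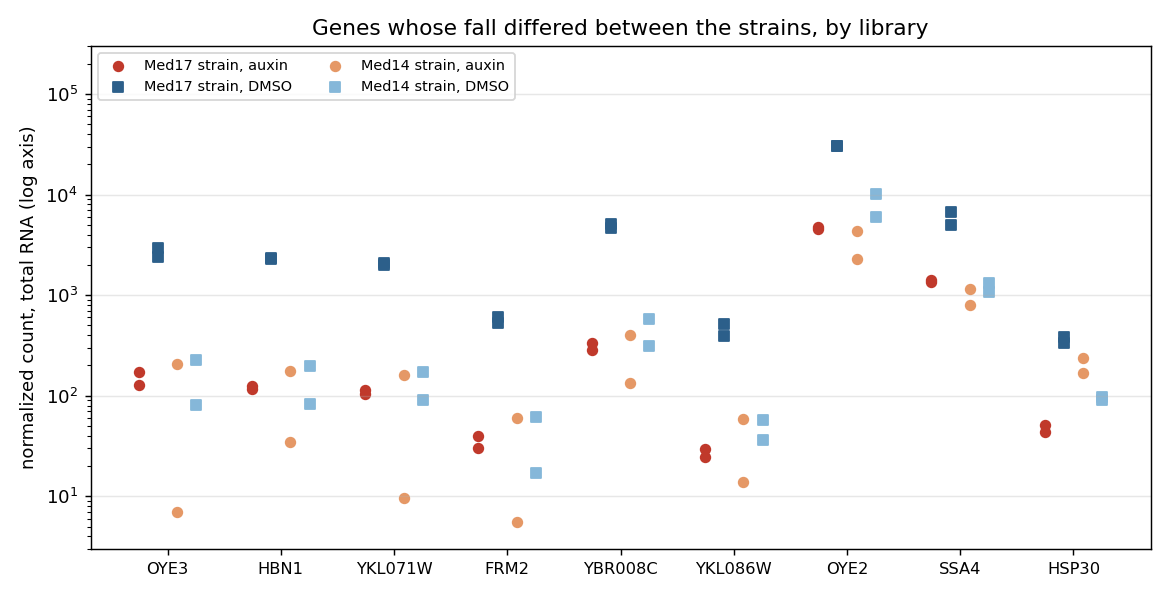
Normalized counts in total RNA (y axis, log scale) of 9 genes (x axis) in each library of the Med17 strain with auxin and DMSO and of the Med14 strain with auxin and DMSO, a point per library. For all 9 genes plotted both Med17 DMSO libraries lie above the other 6 libraries, and in HSP30 the Med14 auxin libraries lie above the Med14 DMSO libraries.

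Another 3 of the 12 lowest genes rest on a single library. YLR154W-F, TAR1 and YLR154W-B lie side by side on chromosome XII, between 454392 and 456023, and TAR1 is named as a transcript antisense to ribosomal RNA. TAR1 had 64.7 and 7.38 normalized counts with auxin and 3988 and 39.1 in DMSO, so that a single DMSO library set the difference. Without that library the log2 fold changes were 0.78 for YLR154W-F, -0.09 for TAR1 and 0.51 for YLR154W-B, and none was called.

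**Figure D3:**
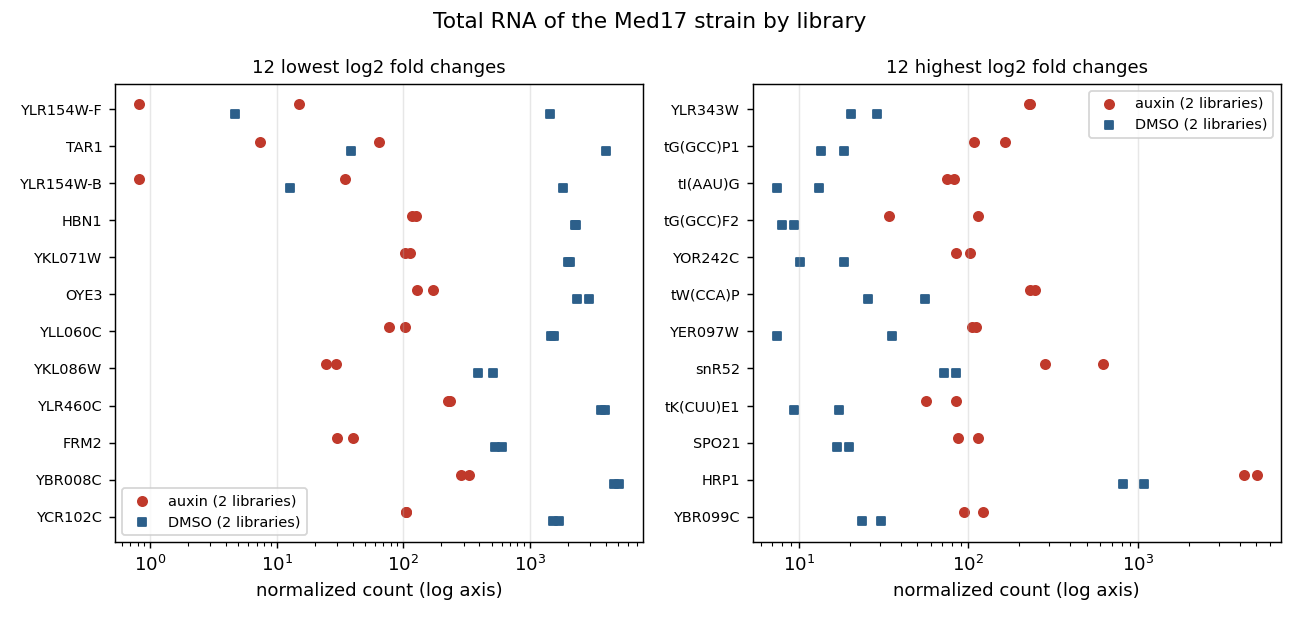
Normalized counts (x axis, log scale) in each Med17-strain library for the 12 genes with the lowest (left) and the 12 with the highest (right) log2 fold changes by rule, with auxin above DMSO for each gene. The first 3 genes on the left have a single high DMSO library, while in the other genes both auxin libraries lie on the same side of both DMSO libraries. The rule took only called genes whose replicate pairs moved the same way, so this gap follows largely from the choice.

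Some other stress lists had, among the genes matched, medians below that of all genes (-1.38). The list of general stress genes, controlled by Msn2 and Msn4, fell in 8 of 8 tested members with a median of -1.89. Of all genes tested, 87.4% fell. Only 8 of the 24 names sought for this list were matched. GPD1, an enzyme of glycerol synthesis whose promoter drives OsTIR1 per the labels, had 359 and 405 with auxin and 1890 and 1992 in DMSO (-2.35, SE 0.171, adjusted p = 2.67e-07). TPS1, which makes the protectant trehalose, had 541 and 593 with auxin and 1790 and 2016 in DMSO (-1.75). The weak-acid and drug efflux list fell in 6 of 6 members (median -1.86), against 87.4% of all genes. Only 6 of the 19 names sought for it are names in the files, and YPL058C, a weak acid transporter outside these 6, rose by 1.01. It was led by ATR1, a drug and boron exporter that is also in the Yap1-type list, with 147 and 133 with auxin and 1635 and 1499 in DMSO (-3.48). PDR5, the major drug pump, fell least in it, with 3535 and 3511 with auxin and 7591 and 6740 in DMSO (-1.02), and turned to 0.20 under TMM.

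Heat shock chaperones fell in 13 of 14 tested members, against 87.4% of all genes. Their median was -1.12, above that of all genes (-1.38). SSA4, the inducible Hsp70, was lowest with 1365 and 1418 with auxin and 4971 and 6699 in DMSO (-2.07, SE 0.189, adjusted p = 7.25e-07). Sulfur and methionine genes fell in 9 of 9 members (median -1.41, near that of all genes). MET1, needed for the sirohaem of sulfite reductase, had 135 and 120 with auxin and 554 and 855 in DMSO (-2.48), and CYS4, the first step from homocysteine to cysteine, had 4409 and 4155 with auxin and 11546 and 11287 in DMSO (-1.41).

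The genes of the 2 ribosomes of the cell parted widely. Of 138 tested genes for cytosolic ribosomal proteins, 36 fell, 1 rose and 101 were not called, and the median log2 fold change was 0.00. Over all genes 87.4% fell, with a median of -1.38. Of the nuclear genes for the mitochondrial ribosome, 39 of 39 fell, with a median of -1.88, so that 27.2% was left. MRP21, a small-subunit protein of that ribosome, had 41.3 and 39.3 with auxin and 268 and 205 in DMSO (-2.53, SE 0.192, adjusted p = 2.97e-07).

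In newly synthesized RNA the medians of these lists lay close together. In the same strain the median change of newly synthesized RNA was -2.88 for cytosolic ribosomal proteins and -2.64 for the mitochondrial ribosome, close to -2.73 for all genes. The ratio of newly synthesized to total normalized counts in the Med14 strain in DMSO, a measure taken outside the Med17 libraries, had a median of 1.201 for cytosolic ribosomal proteins, 5.48 for the mitochondrial ribosome and 5.73 for all genes. The ratio ranks genes only, since the tables of the 2 kinds of RNA were scaled separately.

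A minority of cytosolic ribosomal protein genes did fall deeply, 12 of them by more than 2-fold. RPL22B had 94.0 and 91.8 with auxin and 527 and 424 in DMSO (-2.35), and RPL15B had 69.9 and 53.3 with auxin and 258 and 246 in DMSO (-2.02). Both are the minor copy of a duplicated pair. Of 59 such pairs, the copy with the lower DMSO level had the lower fold change in 40, with a median of -0.20 for the lower and 0.05 for the higher copy. Reads of near-identical copies may be split between them, so single members of a pair are uncertain. RPL3, which has no second copy, also fell, with 10594 and 9173 with auxin and 26048 and 22699 in DMSO (-1.30). RPL43A was the gene that rose, with 6524 and 6311 with auxin and 5260 and 4710 in DMSO (0.36, SE 0.117, adjusted p = 0.0104), a call lost without auxin replicate 1 (adjusted p = 0.0567), without DMSO replicate 2 (adjusted p = 0.0657) and with mitochondrial genome or SCR1 scaling (adjusted p = 0.139 and 0.236).

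Among genes annotated as aminoacyl-tRNA ligases, the enzymes that charge tRNAs, the 18 whose description names mitochondria had a median of -2.14, with 15 lower, and the other 17 had a median of -0.18, with 7 lower. Over all genes 87.4% were lower, and the difference between both groups of ligases was not tested. Translation factors fell in 19 of 26 members with a median of -0.42. YEF3, the fungal elongation factor 3, had 72438 and 65869 with auxin and 66052 and 54517 in DMSO (0.20, adjusted p = 0.130), but was called higher without DMSO replicate 1 (0.34, adjusted p = 0.0323). GCN3, a subunit of the initiation factor eIF2B, had 135 and 162 with auxin and 435 and 348 in DMSO (-1.39).

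Ribosome biogenesis genes fell in 17 of 22 members with a median of -0.69. Subunits of RNA polymerases I and III fell in 16 of 19 with a median of -0.78. Both shares lay under the 87.4% of all genes that fell. RPC17, a subunit of RNA polymerase III, had 37.6 and 25.4 with auxin and 103 and 90.9 in DMSO (-1.60). RPA190, the largest subunit of RNA polymerase I, belongs to both lists and is the member that rose in each. It had 7363 and 6534 with auxin and 5753 and 4527 in DMSO (0.44, SE 0.138, adjusted p = 0.00999), and its adjusted p was 0.0955 without DMSO replicate 2, 0.0767 without auxin replicate 1, 0.0573 with mitochondrial genome scaling and 0.141 with SCR1 scaling.

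**Figure D4:**
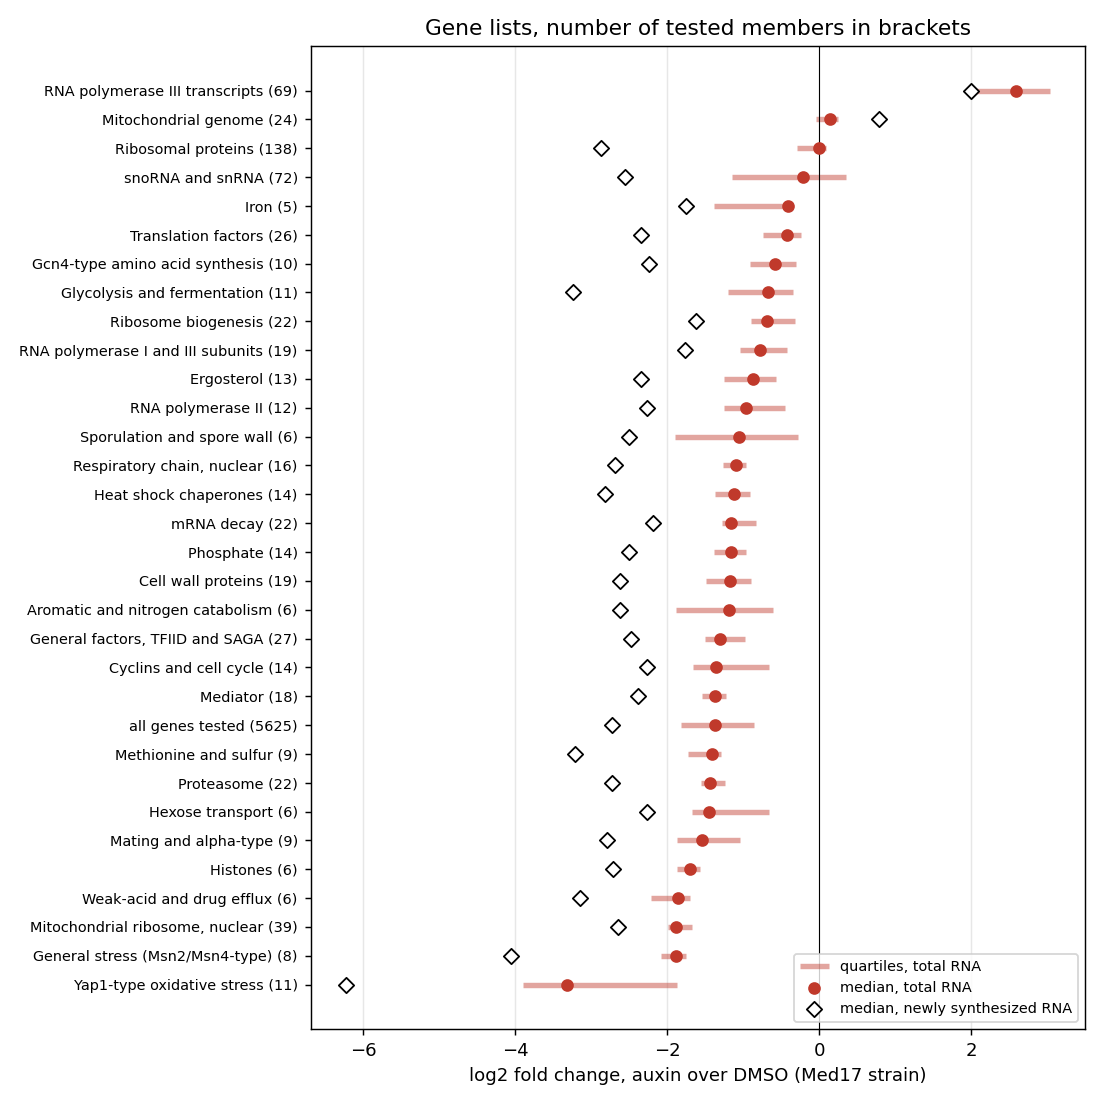
Median log2 fold change, auxin over DMSO in the Med17 strain (x axis), of total RNA (filled circles, with bars from the lower to the upper quartile) and of newly synthesized RNA (open diamonds) for 31 gene lists and all genes tested (y axis, ordered by total RNA). Cytosolic ribosomal proteins lie at 0.00 in total RNA and at -2.88 in newly synthesized RNA, and the Yap1-type list is lowest in both.

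Glycolysis, whose mRNAs are among the most abundant, fell in 11 of 11 members, against 87.4% of all genes. Its median was -0.68, against -1.38 for all genes, while its newly synthesized RNA had a median of -3.24. TDH3, the main glyceraldehyde-3-phosphate dehydrogenase, had 115071 and 105280 with auxin and 145060 and 133501 in DMSO (-0.34, SE 0.105, adjusted p = 0.00856). Leaving out DMSO replicate 1 or auxin replicate 2 ended that call (adjusted p = 0.0699 and 0.0526), as did a fit of the 4 Med17 libraries alone (adjusted p = 0.151) and SCR1 scaling (adjusted p = 0.0529). ENO2, an enolase, had 77229 and 73216 with auxin and 95690 and 89166 in DMSO (-0.30, adjusted p = 0.0209), and leaving out the same libraries gave adjusted p = 0.112 and 0.0863, with 0.155 in the fit of 4 libraries and 0.121 with SCR1 scaling. TDH1, the isozyme linked to stress and slow growth, fell far more than TDH3, with 661 and 730 with auxin and 2815 and 3202 in DMSO (-2.11). Its newly synthesized RNA changed by -7.16. TDH genes are close copies of each other, so their counts may be shared.

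Respiratory chain genes of the nucleus fell in 16 of 16 members, against 87.4% of all genes, with a median of -1.09 against -1.38. CYC1, cytochrome c, had 87.2 and 105 with auxin and 400 and 381 in DMSO (-2.02), and QCR2, a subunit of complex III, had 828 and 826 with auxin and 1197 and 1156 in DMSO (-0.51). In the list of RNAs of the mitochondrial genome, 1 of 24 tested members fell and none rose, with a median of 0.14. Of all genes tested, 87.4% fell and 2.42% rose. Mitochondrial tRNA genes had 2 of 6 tested members higher and a median of 0.50. Q0050, an intron-encoded reverse transcriptase, had 22594 and 15724 with auxin and 18360 and 16415 in DMSO (0.14, adjusted p = 0.408), and the groups overlapped. Without auxin replicate 2 it was called higher (0.38, adjusted p = 0.0291).

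Genes of the transcription machinery fell with the rest. Mediator subunits were lower in 18 of 18 members (median -1.37) and general factors with TFIID and SAGA in 27 of 27 (median -1.30). Over all genes 87.4% were lower, with a median of -1.38, so both medians lay near that of all genes. SRB7, a middle-module subunit, had 42.1 and 42.6 with auxin and 192 and 183 in DMSO (-2.14), NUT1, in the tail, had 432 and 421 with auxin and 638 and 657 in DMSO (-0.60), and GAL11, the tail subunit that binds activators, fell by 1.22. GCN5, the SAGA histone acetyltransferase, had 44.4 and 40.2 with auxin and 194 and 199 in DMSO (-2.21). Subunits of RNA polymerase II were less uniform, with 9 of 12 lower, 1 higher and a median of -0.96. RPB7, of the detachable stalk, had 147 and 113 with auxin and 407 and 368 in DMSO (-1.57). RPO21, the largest subunit, had 6136 and 6129 with auxin and 5116 and 4939 in DMSO (0.29, adjusted p = 0.0283), a rise no longer called in 3 of the 4 fits with a library left out (adjusted p = 0.0951 without auxin replicate 1, 0.0935 without auxin replicate 2 and 0.0879 without DMSO replicate 2) and with mitochondrial genome or SCR1 scaling (adjusted p = 0.270 and 0.358).

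mRNA decay genes fell in 22 of 22 members, where 87.4% of all genes fell, with a median of -1.16, above that of all genes (-1.38). XRN1, the cytoplasmic 5′ to 3′ exonuclease, fell least among them, with 3813 and 3620 with auxin and 5358 and 5364 in DMSO (-0.53), and CDC36, a subunit of the CCR4-NOT deadenylase, fell most, with 83.5 and 63.9 with auxin and 321 and 266 in DMSO (-1.98). Proteasome genes also fell in 22 of 22 members, with a median of -1.43, near that of all genes. PUP2, a subunit of the catalytic core, had 336 and 379 with auxin and 1384 and 1369 in DMSO (-1.95), and RPN1, of the regulatory particle, had 2981 and 2854 with auxin and 4321 and 4245 in DMSO (-0.55).

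Genes of the cell cycle fell in 12 of 14 members (median -1.35), histones in 6 of 6 (median -1.69) and mating genes in 7 of 9 (median -1.55). The shares of cell cycle and mating genes lay under the 87.4% of all genes that fell. CLB1, a mitotic cyclin, had 62.4 and 49.99 with auxin and 263 and 191 in DMSO (-1.99), and CSE4, the centromeric histone, had 36.1 and 25.4 with auxin and 124 and 112 in DMSO (-1.92). RNR1, the large subunit of ribonucleotide reductase, was not called, with 1507 and 1533 with auxin and 1768 and 1588 in DMSO (-0.14, adjusted p = 0.263). STE3, the a-factor receptor, had 227 and 208 with auxin and 1585 and 1548 in DMSO (-2.85), and MF(ALPHA)1, which encodes the alpha pheromone, had 1069 and 1140 with auxin and 4248 and 3935 in DMSO (-1.89). Both are made only in alpha cells, which the strain is.

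Among metabolic lists, hexose transport and glucose repression fell in 6 of 6 members (median -1.45), phosphate genes in 14 of 14 (median -1.16), cell wall proteins in 16 of 19 (median -1.17), ergosterol synthesis in 12 of 13 (median -0.87), aromatic and nitrogen catabolism in 5 of 6 (median -1.18), Gcn4-type amino acid synthesis in 7 of 10 (median -0.58) and iron genes in 2 of 5 (median -0.41). Over all genes 87.4% fell, with a median of -1.38, so that the counts of cell wall, nitrogen, amino acid and iron genes lay under the background. MTH1, a repressor of hexose transporters, had 34.6 and 31.1 with auxin and 155 and 140 in DMSO (-2.15). PHO84, the high-affinity phosphate carrier, had 1758 and 1752 with auxin and 5619 and 4624 in DMSO (-1.54), and CWP1, a mannoprotein of the wall, had 75.2 and 91.0 with auxin and 447 and 445 in DMSO (-2.43). CAR1, arginase, fell by 2.10, HOM3, aspartate kinase, by 1.44, ERG12, mevalonate kinase, by 1.56 and AFT1, the iron regulator, by 1.53. ERG3, a sterol desaturase, was not called, with 559 and 555 with auxin and 752 and 561 in DMSO (-0.23), but was called lower without DMSO replicate 2 (-0.43, adjusted p = 0.0261).

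Reads at tRNA genes rose as a group. RNA polymerase III transcripts had 69 tested members of 259 in the table, and 64 of these were higher, with a median log2 fold change of 2.59 against -1.38 for all genes tested. The share called higher over all genes tested was 2.42%. Summed over the 257 nuclear tRNA genes in the table, the libraries held 2428 and 3313 normalized counts with auxin and 678 and 454 in DMSO, which was 0.0547% and 0.0776% of raw counts with auxin and 0.0104% and 0.00762% in DMSO. The sum was thus higher in both auxin libraries, and it was also higher with auxin in the Med14 strain, with 1425 and 1966 with auxin and 675 and 616 in DMSO. Only 66 tRNA genes passed the filter on low counts, many of them through the auxin libraries where they were high. The count of members called is therefore no measure of how many tRNA genes rose. Their median rests on the same selected genes, so it is no measure of the size of the rise. Library preparations of this kind capture mature tRNAs poorly, tRNA genes occur in near-identical copies, and the counts behind single genes were small.

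Among single genes, tG(GCC)P1, a glycine tRNA gene on chromosome XVI, had 108 and 166 normalized counts with auxin and 18.5 and 13.5 in DMSO (3.14, SE 0.311, adjusted p = 1.25e-06). The tryptophan tRNA gene tW(CCA)P had 247 and 230 with auxin and 55.5 and 25.6 in DMSO (2.68), and the isoleucine tRNA gene tI(AAU)G had 75.2 and 82.8 with auxin and 13.2 and 7.41 in DMSO (3.04). tG(GCC)F2 rose by 3.03 and tK(CUU)E1 by 2.51. snR52, a snoRNA made by RNA polymerase III, had 283 and 625 with auxin and 84.6 and 71.4 in DMSO (2.56, SE 0.365, adjusted p = 2.58e-05). In each of these genes both auxin libraries lay above both DMSO libraries. They were picked among called genes whose replicate pairs both rose, so this gap follows largely from the choice and is no separate support. tG(GCC)P1, tW(CCA)P and tI(AAU)G also reached the required mean of 50 raw counts only through the auxin libraries.

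SCR1 and RPR1, also made by RNA polymerase III, were not called. SCR1, which forms the core of the signal recognition particle and had the most counts in the table, had 324633 and 341426 with auxin and 342820 and 324097 in DMSO (0.00, SE 0.172, adjusted p = 0.992). RPR1, the RNA of ribonuclease P, had 18858 and 23670 with auxin and 17032 and 18028 in DMSO (0.28, adjusted p = 0.285). The groups overlapped for SCR1, while for RPR1 both auxin libraries lay above both DMSO libraries. Under TMM these changes became 1.22 and 1.499.

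Small nucleolar and spliceosomal RNAs, most of them made by RNA polymerase II, fell in 24 of 72 tested members and rose in 2. Of all genes tested, 87.4% fell and 2.42% rose. The median of these RNAs was -0.21, against -1.38 for all genes, while their newly synthesized RNA had a median of -2.55. snR40 fell most, with 14.3 and 17.2 with auxin and 137 and 70.0 in DMSO (-2.64, SE 0.477, adjusted p = 0.000191). snR31 was the highest, with 841 and 4252 with auxin and 784 and 998 in DMSO (1.51, SE 0.578, adjusted p = 0.0258). Its groups overlapped, and without auxin replicate 2 the change was -0.09.

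Few mRNAs rose. Among genes with a mean of at least 50 raw counts, 38 nuclear protein-coding genes were higher, and 3 of these are listed as dubious reading frames. A fit of the 4817 genes of all kinds with such a mean called 46 higher, and 2.42% of all genes tested rose. Some of the 38 were low in DMSO, such as YLR343W, and reached this mean only through the auxin libraries. HRP1 (YOL123W, chromosome XV, 87844 to 89448) had the most normalized counts per kilobase with auxin among the named mRNAs that rose more than 2-fold (2865, against 593 in DMSO). It encodes an RNA-binding subunit of cleavage factor I, which acts in the formation of mRNA 3′ ends, and had 5002 and 4194 normalized counts with auxin and 1082 and 820 in DMSO (2.28, SE 0.151, adjusted p = 2.18e-07). Its newly synthesized RNA changed by 0.34, against a median of -2.73 for all genes. YNL251C, described as the RNA-binding subunit of the Nrd1 termination complex, had 1447 and 1224 with auxin and 579 and 484 in DMSO (1.33, SE 0.135, adjusted p = 1.46e-06). Both auxin libraries lay above both DMSO libraries in these genes, which were picked for their rise.

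Some genes of spore formation, normally silent in growing cells, were among those that rose. YLR343W, a glucanosyltransferase of the spore wall, had 228 and 229 with auxin and 29.1 and 20.2 in DMSO (3.28, SE 0.218, adjusted p = 2.18e-07), YOR242C, a spore wall protein, had 102 and 84.4 with auxin and 18.5 and 10.1 in DMSO (2.82), and SPO21, of the meiotic spindle pole, had 114 and 86.9 with auxin and 19.8 and 16.8 in DMSO (2.48). The list of sporulation genes, which matched 7 of 35 names and holds none of these 3 genes, had 4 of 6 tested members lower, 1 higher and a median of -1.05. Of 32 tested genes annotated to ascospore wall assembly, 20 were lower and 4 higher, with a median of -1.27. For both sets the background over all genes tested was 87.4% lower and 2.42% higher, with a median of -1.38. The dubious reading frames YER097W and YBR099C rose by 2.59 and 2.05. YBR099C lies wholly within MMS4, whose reads may not be separable from its own.

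Of the other mRNAs that rose, YNL008C, a subunit of the Asi ubiquitin ligase of the inner nuclear membrane, had 814 and 793 with auxin and 223 and 195 in DMSO (1.95). YPL058C, the transporter that expels weak organic acids, had 1393 and 1413 with auxin and 738 and 655 in DMSO (1.01), and YGL009C, an enzyme of leucine synthesis, had 6417 and 5412 with auxin and 3160 and 2815 in DMSO (0.99). In the Med14 strain these last genes changed by 0.01 and -0.08. Nucleolar proteins made up 7 of the 38, each with a log2 fold change under 1. Of all 264 tested genes annotated to the nucleolus, 194 were lower and 7 higher, with a median of -0.74, so most of them fell. Over all genes tested in the Med17 strain 87.4% were lower and 2.42% higher, so the share of nucleolar genes that rose was near the background. URB1, a nucleolar protein of 60S subunit assembly, had 1943 and 1655 with auxin and 1479 and 1144 in DMSO (0.46, adjusted p = 0.0166), with adjusted p = 0.122 without auxin replicate 1, 0.140 without DMSO replicate 2, 0.0679 with mitochondrial genome scaling and 0.198 with SCR1 scaling. In the Med14 strain 19 of the 38 were also called higher and 32 had a positive change. The background there was 1.62% of genes called higher and 75.1% lower.

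The size of a fall went with the ratio of newly synthesized to total RNA at 1 end only. Genes were put in 5 classes by that ratio in the Med14 strain in DMSO, which shares no library with the Med17 contrast. In the class with the lowest ratio the median log2 fold change was -0.74 (1120 genes, quartiles -1.39 and -0.15), and 68.5% of its genes fell. In the next classes, with rising ratio, the medians were -1.41, -1.53, -1.47 and -1.47 (1121 genes each), and 91.4% to 94.0% fell. The change of newly synthesized RNA ran the other way, with medians of -2.87, -2.84, -2.75, -2.61 and -2.51. Each replicate pair gave the class with the lowest ratio the smallest fall, -0.81 and -0.68. That class also held the most abundant RNAs, with a median of 1012 normalized counts per kilobase in Med17 DMSO against 119 to 304 in the other classes, and 44 of the tested tRNA genes, so ratio and level were not separated.

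**Figure D5:**
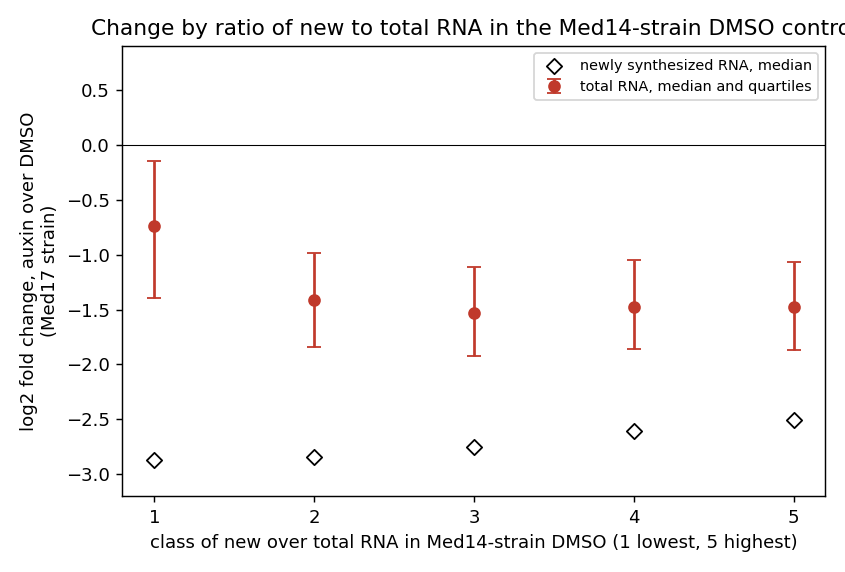
Median log2 fold change, auxin over DMSO in the Med17 strain (y axis), of total RNA (filled circles, bars from the lower to the upper quartile) and of newly synthesized RNA (open diamonds) in 5 classes of genes by the ratio of newly synthesized to total RNA in Med14-strain DMSO (x axis, from lowest to highest). Total RNA has a median of -0.74 in class 1 and of -1.41 to -1.53 in the others, while newly synthesized RNA lies between -2.87 and -2.51 throughout.

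Classes by level gave a graded picture, again without separating level from ratio. In 5 classes of protein-coding genes by normalized counts per kilobase in Med14 DMSO, from lowest to highest level, the medians were -1.67, -1.59, -1.46, -1.31 and -0.86. By transcript length, from shortest to longest, they were -1.40, -1.53, -1.47, -1.43 and -1.19.

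Total RNA fell less than newly synthesized RNA. In a joint fit of both kinds of RNA with 6057 genes, the log2 fold change of total RNA was higher than that of newly synthesized RNA for 5091 genes (84.1%) and lower for 17 (0.281%), with a median difference of 1.34. Under TMM, which sets the middle of each kind of RNA near 0, the counts became 872 and 949, so the direction of this difference rests on the constants of both tables. The 17 genes became 8 without DMSO replicate 1 and 11 without DMSO replicate 2. TDH1 had a change of -2.11 in total and -7.16 in newly synthesized RNA, a difference of 5.04. OYE3 had a difference of 6.30 and HBN1 of 4.82. The list of the mitochondrial genome had a negative median difference, -1.16. Its median was 0.14 in total and 0.79 in newly synthesized RNA. SRB7 (difference 0.13, adjusted p = 0.631) and snR40 (-0.29, adjusted p = 0.668) were not called. This does not show that their total and newly synthesized RNA moved alike. SCR1 changed by -0.14 in newly synthesized RNA and tG(GCC)P1 by 2.92.

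The fall was deeper with Med17 than with Med14. In the Med14 strain 4225 genes fell and 91 rose, with a median of -0.76, and the sum of normalized counts was left at 79.0%. The change in the Med17 strain minus that in the Med14 strain was negative and called for 2322 genes (41.3%) and positive and called for 69 (1.23%), with a median of -0.54. The counts depend on the scaling, with 337 lower and 472 higher genes under TMM and 48 lower and 6 higher with SCR1, whose level spread widely in Med14 DMSO (334847 and 215498). The higher count also moved with single libraries, to 45 without auxin replicate 2, 41 without DMSO replicate 2 and 112 without DMSO replicate 1 of the Med17 strain, and the lower count ranged over 1551 to 2210. Strain and subunit cannot be told apart, since each subunit was tagged in a single strain.

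The difference was spread unevenly over the lists. It was called lower in 11 of 11 Yap1-type genes, 21 of 22 proteasome genes, 36 of 39 mitochondrial ribosome genes and 20 of 27 genes of general factors, TFIID and SAGA. It was called lower in 4 of 138 cytosolic ribosomal protein genes and in 3 of 26 translation factor genes. The share called lower over all genes tested was 41.3%. These counts rest on the authors' constants, since TMM left 337 genes lower and SCR1 scaling 48. HSP30, a stress-induced membrane protein that curbs the plasma membrane proton pump, had the lowest difference, -4.02 (adjusted p = 2.80e-05). It fell in the Med17 strain, with 43.6 and 51.6 with auxin and 334 and 381 in DMSO (-2.92), and rose in the Med14 strain, with 168 and 239 with auxin and 97.3 and 91.1 in DMSO (1.10).

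Positive differences included small RNAs, such as snR31 (2.33, resting on auxin replicate 2 of the Med17 strain) and snR52 (1.84), and a few mRNAs. OLE1, the fatty acid desaturase, had 966 and 886 with auxin and 900 and 537 in DMSO in the Med17 strain (0.38, adjusted p = 0.0822, but 0.78 and adjusted p = 0.000342 without DMSO replicate 1), and 812 and 859 with auxin and 2033 and 2395 in DMSO in the Med14 strain (-1.41), a difference of 1.78 (adjusted p = 0.00119). ERG3 had 416 and 311 with auxin and 1233 and 1394 in DMSO in the Med14 strain (-1.85), and its difference was 1.62 (adjusted p = 0.000887). The ergosterol list as a whole had a median difference of 0.04, with 2 of 13 members called higher, against 1.23% of all genes tested. RNR1 had a difference of 1.07 (adjusted p = 0.00133), with 1378 and 1345 with auxin and 2914 and 3389 in DMSO in the Med14 strain. In OLE1, ERG3 and RNR1 the Med17 DMSO level was below the Med14 DMSO level, and its part in the difference was not tested.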

How the data were processed

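RNA of 16 yeast libraries was sequenced after a stranded total RNA library preparation with ribosomal RNA removal, per the labels' protocols. The submitters' processing notes name bcl2fastq 2.17.1.14 and sacCer3. Which aligner, counter, strand setting and annotation were used is not given there or in the labels, so reads of overlapping or antisense genes may not be separated. Raw counts of reads per gene make up the deposited tables, per the file headers, for 6805 genes in total RNA and 6859 in newly synthesized RNA. The authors also deposited a normalized signal, equal to the raw count times 1 constant per library. The authors' deposited log2 fold changes and p-values between numbered groups were set beside this contrast only as a check, and the comparison "4 vs 3" differed from it by a median of 0.0447 on the log2 scale. Gene names are those of the files, which name 2221 genes of the total RNA table, and other genes are given by systematic ID. Gene lists therefore hold only members named there: of 773 names sought, some of them synonyms, 382 matched. Lists of ribosomal protein genes and of small and mitochondrial RNAs were also matched by name pattern.

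Raw counts were tested with edgeR 4.0.16 in R 4.3.3 by the two-sided quasi-likelihood F test, with 1 fit over the 8 total RNA libraries, the group as factor, the authors' constants as scaling and filterByExpr as filter. A joint fit of 16 libraries tested total against newly synthesized RNA. All values of newly synthesized RNA come from it. Genes with a Benjamini-Hochberg adjusted p under 0.05, over all genes tested, were called. Each adjusted p in the text is such a value. SE is the standard error of a log2 fold change, and per-library values are normalized counts of replicates 1 and 2. The scripts were tested on simulated data. DESeq2 1.42.0 served as an alternative.

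The members, gene lists and classes were chosen with earlier results of these data known. Genes named were the tagged genes, the 12 lowest and 12 highest called genes whose raw counts averaged at least 50 and whose replicate pairs moved the same way, the most abundant genes, the 5 lowest and 5 highest of each difference, and, for each list, its most abundant, lowest and highest member. Not each of these is described, and 1 is not reported here. Others were chosen after their values were seen: ECM4, GPX2, RPL15B, RPL3, RPR1, URB1, YNL251C, YNL008C, YPL058C and YGL009C.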

Additional observations from a re-analysis of the deposited data

Results flagged for a closer look

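The change with auxin differed between the strains by a test of the difference itself, edgeR's quasi-likelihood test of the Med17 change minus the Med14 change with Benjamini-Hochberg adjustment. It was called below 0 for 2322 genes and above 0 for 69. All values below are that log2 difference, and each had an adjusted p under 0.05.

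The most negative of these values was that of HSP30 (-4.02), for which both strains moved in opposite directions. Values of oxidative stress and detoxification genes were HBN1 (-3.89), FRM2 (-3.85), YKL086W (-3.74), YKL071W (-3.69), OYE3 (-3.69), YBR008C (-3.24), YCR102C (-3.09), YLR460C (-3.07), YLL060C (-3.02), ECM4 (-2.74), ATR1 (-1.88), GPX2 (-1.76), OYE2 (-1.43) and TSA1 (-0.61). Those of other stress and sulfur genes were MET1 (-2.48), SSA4 (-1.79), TPS1 (-1.21) and GPD1 (-0.88).

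Genes of the mitochondrial and cytosolic ribosomes and of translation were MRP21 (-1.51), RPL15B (-1.38), GCN3 (-0.88), RPL22B (-0.66) and RPL3 (-0.58). Genes of transcription and RNA decay were CDC36 (-1.16), RPB7 (-0.99), SRB7 (-0.98), GCN5 (-0.88), SRB4 (-0.86), RGR1 (-0.84), GAL11 (-0.65) and XRN1 (-0.48). Genes of the proteasome were PUP2 (-0.88) and RPN1 (-0.47), and those of metabolism, glucose sensing and the cell wall TDH1 (-1.41), MTH1 (-1.17), CWP1 (-1.14) and HOM3 (-0.76).

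Positive values, meaning a smaller fall or a larger rise in the Med17 strain, were found for PDR5 (0.61), PHO84 (0.79), RNR1 (1.07), ERG3 (1.62) and OLE1 (1.78), for the mRNAs HRP1 (0.73), YNL251C (0.76), YPL058C (1.01), YGL009C (1.06), YNL008C (1.10), YLR343W (1.27) and YBR099C (1.44), and for the small RNAs tG(GCC)P1 (1.76), snR52 (1.84) and snR31 (2.33). The value of snR31 rests on auxin replicate 2 of the Med17 strain.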

How the results depend on the processing

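The scaling decides the direction of small falls. Relative to the authors' constants the median of all genes shifted by 1.21 with TMM, 1.33 with median-of-ratios factors and 0.51 with library totals, on the log2 scale. The Med17 contrast called 1904 genes lower and 1428 higher with TMM (median -0.16), 1458 and 1665 with median-of-ratios factors (-0.042) and 498 higher with library totals (-0.87). Its median was -1.47 with mitochondrial genome scaling. Of the 136 genes called higher, 116 were also called higher with mitochondrial genome scaling, 106 with SCR1 scaling, 109 with DESeq2 and 86 to 117 without 1 library. TMM, median-of-ratios factors and library totals, which raise every gene, left all 136. With no filter on low counts 209 genes were higher (median -1.31), and with a mean count of at least 50 there were 46. DESeq2 called 4848 lower and 114 higher. Leaving out 1 library at a time gave 4723 to 4941 lower genes, 102 to 175 higher genes and medians of -1.43 to -1.31.

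For the Med17 change minus the Med14 change, genes lower and higher numbered 337 and 472 with TMM, 273 and 581 with median-of-ratios factors, 1211 and 128 with library totals and 48 and 6 with SCR1, a scaling chosen after its level was seen. Mitochondrial genome scaling left 598 lower. Without 1 library there were 1551 to 2210 lower and 41 to 112 higher. For total minus newly synthesized RNA the numbers were 949 and 872 with TMM (median -0.093), 684 and 1004 with median-of-ratios factors (-0.0084) and 3201 and 324 with library totals (-0.72), with 9 lower at a mean count of at least 50. Without 1 library there were 8 to 14 lower, 4647 to 5101 higher and medians of 1.29 to 1.41. The cause was not tested. The medians of the classes by ratio of newly synthesized to total RNA became 0.48, -0.20, -0.31, -0.27 and -0.26 with TMM.

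Of 86 named genes, 60 kept direction and call with TMM and 82 with mitochondrial genome scaling, where the rises of RPL43A (0.29, adjusted p = 0.139), RPA190 (0.36, adjusted p = 0.0573), RPO21 (0.21, adjusted p = 0.270) and URB1 (0.38, adjusted p = 0.0679) were no longer called. With TMM the log2 fold change turned positive for RGR1 (0.20), SCR1 (1.22), TDH3 (0.88), TSA1 (0.45), PDR5 (0.20), QCR2 (0.71), RPN1 (0.67), GAL11 (0.0016), NUT1 (0.61), XRN1 (0.69), RNR1 (1.08), ERG3 (1.00) and ENO2 (0.92). With median-of-ratios factors it did so for RGR1 (0.32), SCR1 (1.34), TDH3 (1.00), TSA1 (0.57), PDR5 (0.32), QCR2 (0.83), RPN1 (0.79), GAL11 (0.12), NUT1 (0.73), XRN1 (0.81), RNR1 (1.201), ERG3 (1.12), ENO2 (1.05) and RPL3 (0.042). With library totals it did so for SCR1 (0.52), TDH3 (0.18), QCR2 (0.0081), RNR1 (0.38), ERG3 (0.29) and ENO2 (0.22), and with SCR1 scaling for SCR1 (0.00). Leaving out 1 library at a time gave ranges of -9.54 to 0.78 for YLR154W-F, -9.91 to 0.51 for YLR154W-B, -0.042 to 0.039 for SCR1, -0.15 to 0.38 for Q0050 and -0.088 to 2.25 for snR31, with both signs in each.

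With the replicate number as a block, 4893 genes were lower and 130 higher, and SCR1 changed by 0.00046. Deviations of same-numbered libraries correlated across genes with r = 0.246 for Med17 and 0.126 for Med14, but with 2 pairs a strain the numbers were not taken to pair the cultures. A search for sequence motifs in promoters was not run, because promoter sequences were not used here. Each group held 2 libraries, and the counts of single tRNA genes were low.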

Other observations

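Functional terms in the deposited annotation gave further groups, described here without a test. There were 360 terms with 20 to 300 tested nuclear protein-coding genes, many of which share members. The lowest median log2 fold change belonged to the assembly of respiratory complex IV, cytochrome c oxidase, with -2.13 and 20 of 20 genes lower. Next came the phagophore assembly site membrane, where autophagosomes form, with -1.91 and 22 of 23 genes lower. The large and small subunits of the mitochondrial ribosome followed, with -1.90 (46 of 46 lower) and -1.85 (32 of 32 lower). Autophagosome assembly had -1.78 (20 of 21 lower), the kinetochore -1.78 (22 of 23 lower) and the spindle pole -1.77 (23 of 24 lower, 1 higher). Over all genes tested 87.4% were lower.

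At the upper end stood the cytosolic large ribosomal subunit, with 0.01 (28 of 83 lower), cytoplasmic translation, with -0.01 (49 of 151 lower), and the cytosolic small ribosomal subunit, with -0.07 (21 of 66 lower). The small-subunit processome, which matures ribosomal RNA in the nucleolus, had -0.33 with 27 of 52 genes lower. Its newly synthesized RNA had a median of -1.69, against -2.82 for the cytosolic large ribosomal subunit and -3.21 for complex IV assembly.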
